A study of Mus musculus with 15 samples.

Results

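The Nduf genes encode the nuclear subunits of respiratory complex I and a set of its assembly factors. All gene symbols that begin with Nduf were taken, leaving out those with the ending -ps, which gave 49 of the 55416 genes in the deposited files. They comprised 36 subunits, of which 7 are the nuclear members of the catalytic core and 29 are accessory, 8 assembly factors whose symbols begin with Ndufaf, the genes Ndufa4 and Ndufa4l2, and 3 copies of subunit genes (Ndufb4c, Ndufa11b and Ndufs6b). The GENCODE annotation lists these 3 copies as processed pseudogenes, and they were kept because their symbols lack the ending -ps. Of them only Ndufb4c was tested, and it is counted among the Nduf genes below. Their mRNA was read from 15 RNA-seq libraries of the tibialis anterior, the muscle along the shin, of male C57BL/6 (C57BL/6NCrlOri) mice that were 6 to 8 weeks old when the experiment began. The 5 control libraries came from mice without tumour cells, and the labels name no antibody for them. The other 10 libraries came from mice that received KrasIKKaL tumour cells, a cultured line, into the trachea. Of these, 4 were from mice given isotype IgG (rat IgG2b), 3 from mice given 200 µg per kg of anti-PD-L1 antibody and 3 from mice given 200 µg of anti-CD8a antibody, with both antibodies injected into the peritoneum 3 times a week. Between the tumour groups and control, tumour cells and injected antibody changed together, so their parts in a difference cannot be told apart. Whether every library had its own mouse is not stated in the labels, so p-values measure the spread between libraries, which may be technical.

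Complex I is the entry point of electrons from NADH into the respiratory chain. It passes them to ubiquinone and pumps protons across the inner mitochondrial membrane. It is built as modules: the N module oxidises NADH, the Q module reduces ubiquinone, and the proximal and distal parts of the membrane arm pump protons around core subunits that the mitochondrial genome encodes. Accessory subunits surround the core, and assembly factors join the modules but are absent from the finished complex. Skeletal muscle holds much complex I, and oxidative fibres hold more than glycolytic ones.

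Total expected counts were between 15894822 and 22459370 per library, and 14372 genes passed the filter on low counts. The muscle label was checked against the RNA: 9 fast fibre markers, among them Acta1, Ckm and Myh4, summed to between 75973 and 147126 CPM (counts relative to library size, scaled by TMM normalization) in every library. The first principal component of all genes tested held 56.1% of the variance. On it IgG replicate 2 (38.0) lay apart from the other IgG libraries (77.4 to 92.3), and anti-PD-L1 replicate 2 (60.5) from the other anti-PD-L1 libraries (4.98 and 22.9), so results that move without them are given both ways.

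The levels of the Nduf genes were compared with each other as TPM (a transcript's share of its library, corrected for length). In control muscle the 36 subunits had a mean TPM between 104 (Ndufa10) and 879 (Ndufb8), with a median of 311. The 8 Ndufaf assembly factors had between 11.8 (Ndufaf7) and 26.3 (Ndufaf4), with a median of 21.4. Every subunit was thus above every assembly factor in level. Ndufa4, now known as a subunit of complex IV, was the most abundant Nduf mRNA at 1188 ± 188 TPM (SD, n = 5). It was followed by the distal membrane arm subunit Ndufb8 at 879 ± 90.7 TPM and the membrane arm subunit Ndufc1 at 867.7 ± 132 TPM, and these last neighbours in the order lay within their spread. The core subunit with the lowest level was Ndufs1, the largest iron-sulphur subunit, at 110 ± 13.9 TPM. The most abundant assembly factors did not differ beyond their spread: Ndufaf4, Ndufaf1 and Ndufaf8 had 26.3 ± 2.39, 26.0 ± 1.80 and 25.6 ± 6.22 TPM. Ndufa4l2, a relative of Ndufa4 that is induced by low oxygen, had 8.99 ± 3.42 TPM.

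**Figure D1:**
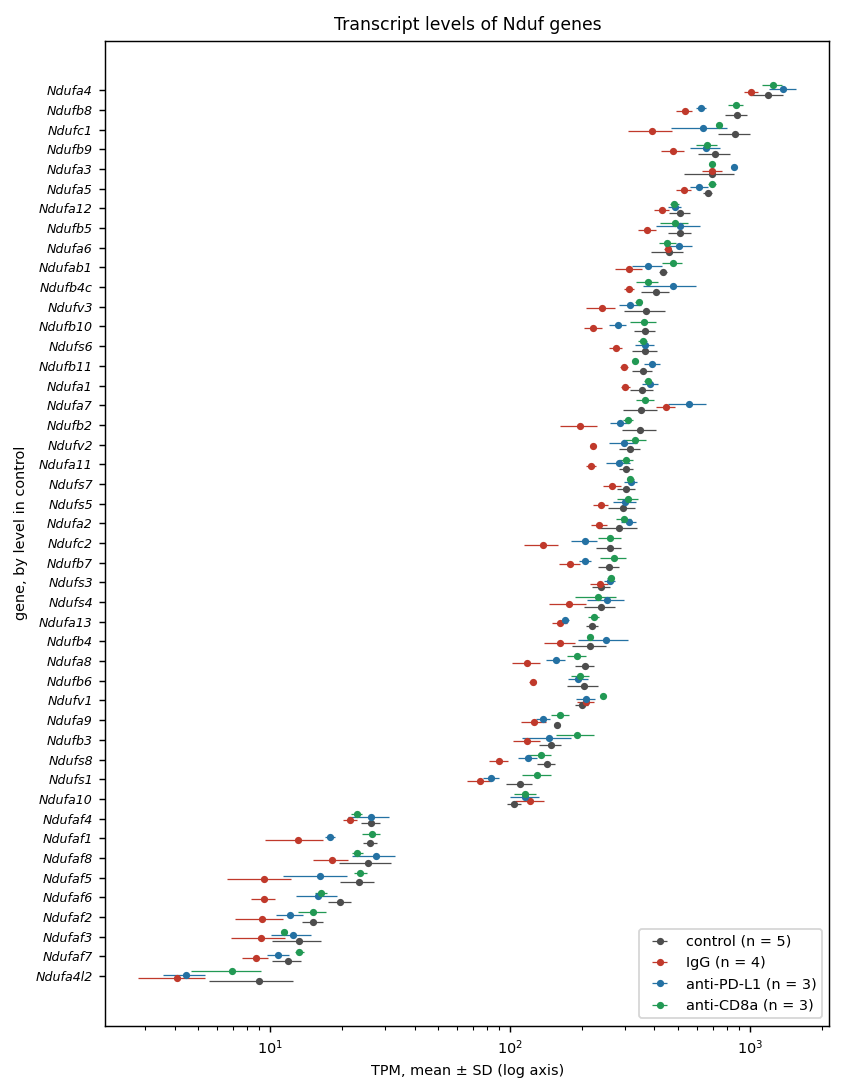
TPM of 46 tested Nduf genes (rows, ordered by level in control) on a log axis; points are group means and bars the SD over 5 control, 4 IgG, 3 anti-PD-L1 and 3 anti-CD8a libraries. The group means of the subunits are at 74.7 TPM or above and those of the Ndufaf assembly factors at 27.5 TPM or below, and the IgG means lie left of the control means for most genes.

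Of the 49 genes, 47 passed the filter and were tested. The lowest expected count of any of these in any library was 29, for Ndufa4l2. Ndufa11b had no counts except 1 in IgG replicate 3, and Ndufs6b had between 0 and 9, so neither was tested. The expected counts of Ndufb4 and its copy Ndufb4c were fractional in 100% of the libraries, as where reads are divided between similar genes, and the values of both are therefore uncertain. Counts of Ndufa12, Ndufs5 and Ndufb6 were also fractional in 100% of libraries, and those of Ndufs1, Ndufs3 and Ndufab1 in 93.3%. Ndufb1-ps was left out by the ending of its symbol, although RefSeq lists the gene as protein-coding Ndufb1, a subunit of the distal membrane arm. It had 272, 162, 174, 266 and 233 CPM in control and 178, 149, 195 and 174 CPM in IgG libraries, a log2 difference of -0.35 (adjusted p = 0.0838).

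Promoter sequences were available for 40 of the 49 genes, from RefSeq on GRCm38.p6, as 42 windows of 300 bases. The build of the deposited files is not given in the sources used here; no position below was used with their values. The motifs of factors known to bind promoters of respiratory genes, and of SP1, were searched on both strands. The NRF1 motif, which is GCGC, any base and TGCGC, was present in 23.8% of the Nduf windows and 4.60% of all 32851 windows. The YY1 motif AAGATGGCG was present in 14.3% against 1.40%, the ETS motif CCGGAAGT in 2.38% against 3.89%, the SP1 motif GGGCGG in 52.4% against 35.7%, and the ESRRA motif TCAAGGTCA in 0 of 42 windows against 0.423%. Matches of different motifs did not overlap in any Nduf window. The median GC content was 59.3% in the Nduf windows and 52.7% in all windows, and the NRF1 and SP1 motifs are rich in G and C. The YY1 matches were all on the sense strand and began 11 to 36 bases after the start, in Ndufc1, Ndufa9, Ndufs7, Ndufaf8, Ndufs6 and Ndufs4. A match is a run of letters, not a shown binding site.

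The 250 bases before the start are shown 5′ to 3′ for 3 genes with an NRF1 match in that stretch and for 1 gene without, picked with their changes known: Ndufa8 (a membrane arm subunit, chr2:36049339-36049588, minus strand), Ndufs6 (an N module subunit, chr13:73328483-73328732, minus strand), Ndufaf4 (a Q module assembly factor, chr4:24897833-24898082, plus strand) and Ndufa10 (a membrane arm subunit whose log2 fold change between IgG and control was -0.02 ± 0.13, chr1:92473759-92474008, minus strand). All are RefSeq sequences on GRCm38.p6, and capitals mark the NRF1 match, which begins 30, 16 and 113 bases before the start in the first 3.
Ndufa8: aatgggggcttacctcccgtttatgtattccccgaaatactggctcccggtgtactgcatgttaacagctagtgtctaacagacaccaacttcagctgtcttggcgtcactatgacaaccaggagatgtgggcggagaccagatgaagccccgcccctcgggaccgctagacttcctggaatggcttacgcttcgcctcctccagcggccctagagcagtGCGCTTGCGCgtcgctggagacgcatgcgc
Ndufs6: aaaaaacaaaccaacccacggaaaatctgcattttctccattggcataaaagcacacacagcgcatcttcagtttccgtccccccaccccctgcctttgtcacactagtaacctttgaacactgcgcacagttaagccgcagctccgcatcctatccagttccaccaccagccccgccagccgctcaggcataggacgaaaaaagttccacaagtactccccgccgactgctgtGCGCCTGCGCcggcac
Ndufaf4: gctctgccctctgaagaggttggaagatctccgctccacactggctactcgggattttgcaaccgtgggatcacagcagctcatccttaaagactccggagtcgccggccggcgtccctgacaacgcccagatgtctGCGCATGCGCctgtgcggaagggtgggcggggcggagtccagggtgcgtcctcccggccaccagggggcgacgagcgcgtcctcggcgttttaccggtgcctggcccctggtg
Ndufa10: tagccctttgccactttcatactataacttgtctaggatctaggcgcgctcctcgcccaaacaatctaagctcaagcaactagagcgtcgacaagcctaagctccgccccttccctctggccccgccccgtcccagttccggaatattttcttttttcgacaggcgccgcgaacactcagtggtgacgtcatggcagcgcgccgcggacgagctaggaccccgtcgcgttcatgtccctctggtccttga

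In tumour-bearing mice given isotype IgG, most Nduf mRNAs were lower than in control muscle. Of the 47 tested, 40 fell and 0 rose at an adjusted p under 0.05 in edgeR's quasi-likelihood test, where 28.4% of all genes were called lower and 30.2% higher. Their median log2 fold change was -0.69, against -0.02 for all genes tested. Among the subunits 29 of 36 fell, with a median of -0.67, and among the assembly factors 8 of 8 fell, with a median of -0.90. By module, 7 of 10 N module subunits fell (median -0.57), 4 of 6 in the Q module (median -0.47), 7 of 9 in the proximal membrane arm (median -0.67) and 11 of 11 in the distal membrane arm (median -0.78). In 36 of the 47 every IgG library lay below every control library, as for 23.4% of all genes. The single value above zero was that of the N module subunit Ndufa7, 0.11 (adjusted p = 0.507), and DESeq2 also called 0 subunits and 0 assembly factors higher. Upper-quartile scaling moved the median of all genes by -0.25 in this comparison and the share of calls that were higher from 51.5% to 37.0%, and it called 34 subunits and 8 assembly factors lower. In bulk RNA, fewer cells or nuclei of a type and less RNA per cell cannot be told apart.

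**Figure D2:**
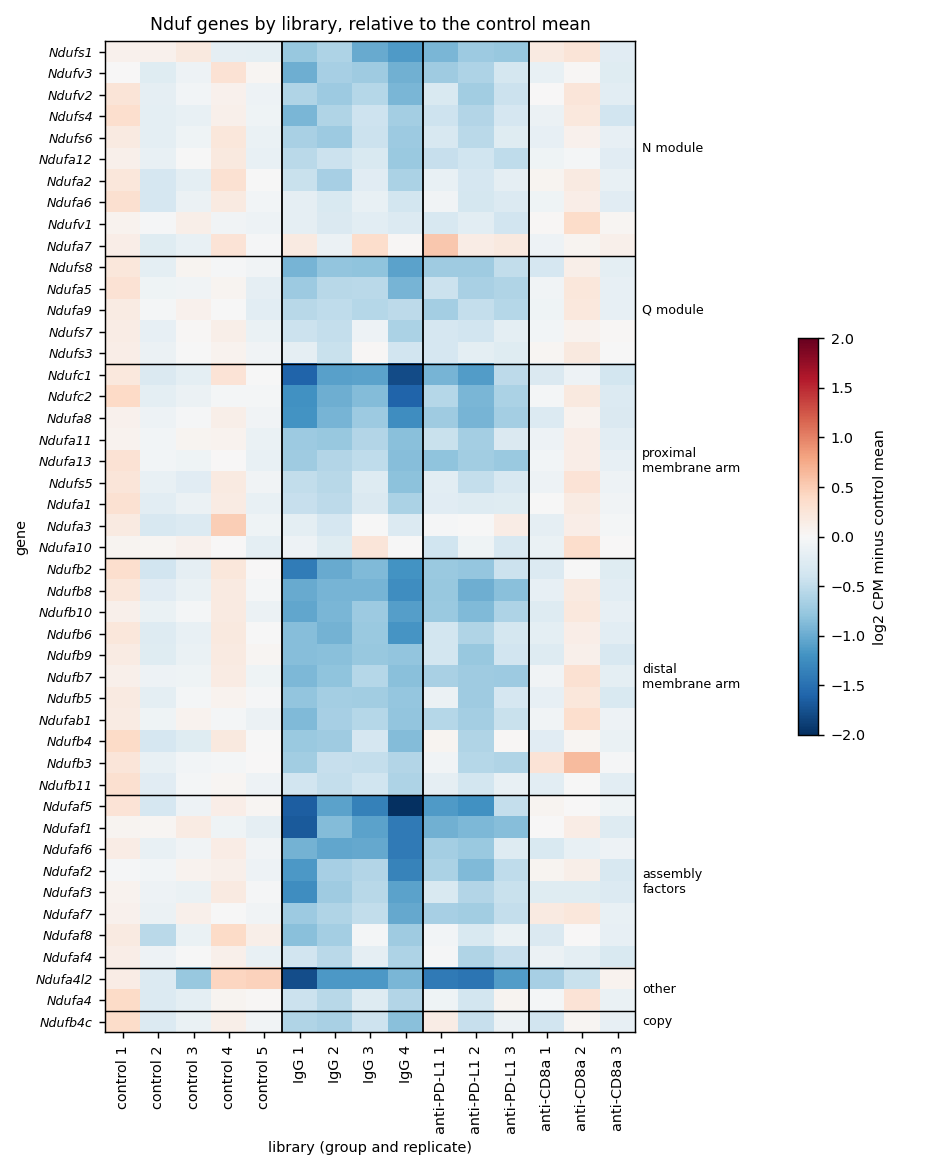
Log2 CPM of 46 tested Nduf genes (rows, by module) in each library (columns), minus the control mean of that gene; blue is lower and red higher. The 4 IgG columns are blue for all but a few rows, the 3 anti-PD-L1 columns are paler, and the 3 anti-CD8a columns have both pale blue and pale red cells, as the control columns do.

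The core subunits did not move evenly. Ndufs1, which carries iron-sulphur clusters in the N module, had 284.9, 284.8, 307, 235 and 233 CPM in the control libraries and 158, 175, 133 and 121 CPM in the IgG libraries. The groups did not overlap, and the log2 fold change was -0.87 ± 0.15 (adjusted p = 0.00011), where ± is the SE. A similar fall was that of Ndufs8, an iron-sulphur core subunit of the Q module, with 111, 82.6, 98.2, 93.4 and 90.5 CPM in control and 49.6, 55.0, 54.3 and 45.2 CPM in IgG libraries and a log2 fold change of -0.90 ± 0.12 (adjusted p = 2.3e-05). Here too each IgG library lay below each control library. Ndufv2, the partner of Ndufv1 in NADH oxidation, had 382, 281.9, 306, 341 and 297 CPM in control and 211, 193, 215 and 170 CPM in IgG libraries and changed by -0.70 ± 0.14 (adjusted p = 0.00046). Ndufs7, which carries the last iron-sulphur cluster before ubiquinone, fell by less, -0.40 ± 0.12 (adjusted p = 0.0105). Its control values of 202, 163, 185, 199 and 167 CPM and its IgG values of 136, 131, 171 and 118 CPM overlapped through IgG replicate 3.

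The core subunits Ndufv1 and Ndufs3 did not pass the test. Ndufv1, which binds NADH and the flavin, had 258, 240, 263.8, 233 and 229 CPM in control and 217, 200, 210 and 201 CPM in IgG libraries. All IgG CPM values were below all control values, but the log2 fold change was small, -0.24 ± 0.11 (adjusted p = 0.0688), and it passed with DESeq2 (-0.24, adjusted p = 0.0337). On the TPM scale the groups overlapped and the IgG mean was not lower, with 199 ± 13.0 TPM in control and 207 ± 17.5 TPM in IgG libraries (SD). Over the alternatives tried, the adjusted p of Ndufv1 ran from 0.00082 to 0.236. Ndufs3 of the Q module changed by -0.24 ± 0.12 (adjusted p = 0.0946), and by -0.34, adjusted p = 0.0240, without IgG replicate 3 (range over the alternatives 0.00214 to 0.253). With upper-quartile scaling, which shifts all genes down in this comparison, Ndufv1 (-0.49, adjusted p = 0.00082) and Ndufs3 (-0.49, adjusted p = 0.00214) were called lower.

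Of the 29 accessory subunits, 25 fell, with a median of -0.67. The largest falls were in the membrane arm. Ndufc1 had 207, 146, 156, 216 and 177 CPM in control and 58.6, 83.5, 84.9 and 51.6 CPM in IgG libraries, a log2 fold change of -1.37 ± 0.18 (adjusted p = 1.5e-05). The highest IgG value lay well below the lowest control value. Its partner Ndufc2 had 180, 120, 126, 134 and 133 CPM in control and 59.5, 70.0, 75.1 and 45.3 CPM in IgG libraries and changed by -1.15 ± 0.17 (adjusted p = 3.3e-05). In the distal arm, Ndufb2 changed by -1.13 ± 0.16 (adjusted p = 2.4e-05) and Ndufb8, the most abundant subunit in control muscle by TPM, by -1.03 ± 0.14 (adjusted p = 1.4e-05). Ndufb8 had 458, 332, 354, 441 and 379 CPM in control and 194, 204, 204 and 165 CPM in IgG libraries, without overlap. Ndufab1, the mitochondrial acyl carrier protein that sits in complex I and also serves lipoic acid synthesis, changed by -0.73 ± 0.12 (adjusted p = 0.00013).

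The 4 accessory subunits that did not pass are named here after their values were seen. They were Ndufa10 (-0.02, adjusted p = 0.899), Ndufa7 (0.11, adjusted p = 0.507), Ndufa3 (-0.23, adjusted p = 0.217) and Ndufa6 (-0.27, adjusted p = 0.106). Ndufa10, a membrane arm subunit that resembles nucleoside kinases, had 190, 189, 196, 185 and 160 CPM in control and 172, 155, 217 and 182 CPM in IgG libraries. These ranges overlapped. In the distal membrane arm 11 of 11 were called, and the smallest change there was that of Ndufb11 (-0.48, adjusted p = 0.00339). These 11 do not include Ndufb1-ps, which did not pass.

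All 8 Ndufaf assembly factors fell. Ndufaf5, which modifies an arginine of Ndufs7, had 29.7, 19.4, 22.7, 26.8 and 25.1 CPM in control and 7.70, 11.6, 9.52 and 5.68 CPM in IgG libraries. Its log2 fold change of -1.52 ± 0.20 (adjusted p = 1.6e-05) was the most negative of the Nduf genes. Ndufaf1, a factor of the membrane arm intermediate, had 33.4, 33.0, 35.8, 30.2 and 28.3 CPM in control and 9.93, 17.5, 15.2 and 12.0 CPM in IgG libraries and changed by -1.24 ± 0.15 (adjusted p = 8.2e-06). In both, each IgG library was well below each control library. Ndufaf6, which acts early on the Q module, had 16.2, 13.1, 13.9, 16.3 and 13.9 CPM in control and 7.51, 7.10, 7.12 and 5.44 CPM in IgG libraries, a change of -1.11 ± 0.14 (adjusted p = 1.2e-05). Ndufaf2, which helps to join the N module late in assembly, changed by -0.92 (adjusted p = 0.0004) and Ndufaf3, a Q module factor, by -0.89 (adjusted p = 0.00014). Ndufaf7, a methyltransferase, changed by -0.71 (adjusted p = 0.00035). The smaller falls were those of Ndufaf4, the partner of Ndufaf3, at -0.42 (adjusted p = 0.0119), and Ndufaf8, which stabilises Ndufaf5, at -0.57 (adjusted p = 0.0175). Ndufaf8 was the one assembly factor with overlapping groups, through IgG replicate 3: 14.9, 9.08, 12.0, 17.3 and 14.3 CPM in control and 7.39, 8.25, 12.8 and 8.00 CPM in IgG libraries. Its call was lost without control replicate 4 (-0.48, adjusted p = 0.0502), without IgG replicate 1 (-0.49, adjusted p = 0.0571) and without IgG replicate 4 (-0.51, adjusted p = 0.0524), and over all alternatives its adjusted p ran from 0.00229 to 0.0576.

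Ndufa4 changed by -0.47 ± 0.15 (adjusted p = 0.0149), with 684, 433, 455, 544 and 531 CPM in control and 386, 356, 436 and 346 CPM in IgG libraries, which overlapped slightly. Ndufa4l2 had 7.12, 5.31, 3.74, 8.65 and 8.92 CPM in control and 1.80, 2.83, 2.84 and 3.36 CPM in IgG libraries, without overlap, and changed by -1.32 ± 0.27 (adjusted p = 0.00058). Ndufa4l2 is known to be strong in pericytes, and 3 of 6 pericyte markers fell and 1 rose in the same comparison. Their sum was 583 to 799 CPM for control, 492 to 579 for IgG, 453 to 568 for anti-PD-L1 and 588 to 792 for anti-CD8a libraries; none of the 6 was at 0 in every library of a group, and their part in the change of Ndufa4l2 was not tested. The copy Ndufb4c changed by -0.64 (adjusted p = 0.00283) and its source gene Ndufb4 by -0.67 (adjusted p = 0.00386), subject to the shared reads.

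Markers of other cell types also moved between IgG and control libraries, where 28.4% of all genes were called lower and 30.2% higher. Of 5 fibroblast markers 4 fell (sums of 939 to 1302 CPM in control and 493 to 685 in IgG), of 7 macrophage markers 6 fell and 1 rose (83.1 to 157 and 59.0 to 95.1), and 3 of 3 red blood cell markers rose (184 to 345 and 245.5 to 1746). Of 9 fast fibre markers 4 fell and 1 rose (105783 to 147126 and 86777 to 140363). Of 8 markers of slow or oxidative fibres 1 rose and the other 7 did not pass, and their sum was 981 to 5601 CPM in control and 3346 to 10184 in IgG libraries. Of 5 endothelial markers 2 fell (154 to 237 and 109 to 174). The 4 T cell markers summed to 0.802 to 1.40 CPM in control and 0.0611 to 0.120 in IgG libraries, where 1 of them was at 0 throughout; 1 was tested and fell. The 4 adipocyte markers had sums of 3.34 to 27.2 and 1.32 to 120 CPM, and of the 2 brown adipocyte markers, with sums of 0.108 to 1.12 and 0.662 to 3.59, the 1 tested rose. Their part in the changes of the Nduf genes was not tested.

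**Figure D3:**
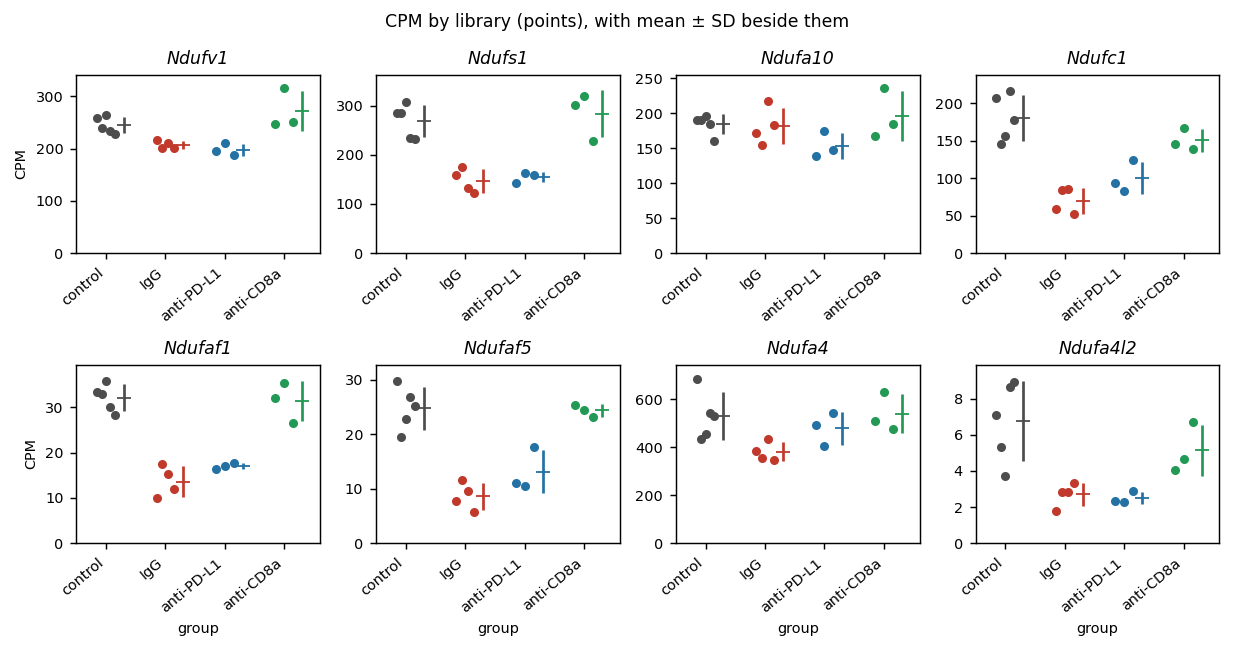
CPM of 8 Nduf genes in each library (points) with the group mean and SD beside them; the vertical axes start at 0. Ndufs1, Ndufc1, Ndufaf1 and Ndufaf5 are higher in every anti-CD8a library than in every IgG and anti-PD-L1 library, while the 4 groups of Ndufa10 overlap.

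Between the tumour groups, the Nduf genes were higher in mice given anti-CD8a than in those given IgG. Of the 47 tested, 38 rose and 0 fell, where 23.2% of all genes were called higher and 24.8% lower. The median log2 fold change was 0.66, against 0.02 for all genes. Subunits rose in 29 of 36 cases (median 0.65) and assembly factors in 6 of 8 (median 0.84). By module, 8 of 10 rose in the N module, 4 of 6 in the Q module, 7 of 9 in the proximal arm and 10 of 11 in the distal arm. In 39 of the 47 every anti-CD8a library lay above every IgG library, as for 23.1% of all genes. The single value below zero was that of Ndufa7, -0.10 (adjusted p = 0.604), and DESeq2 called 0 subunits and 0 assembly factors lower. Upper-quartile scaling moved the median of all genes by 0.23 and the share of calls that were higher from 48.3% to 64.5%, with 32 subunits and 8 assembly factors higher. This comparison and that of IgG with control share the IgG libraries.

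Ndufaf5 again had the largest difference, with 25.4, 24.5 and 23.1 CPM in anti-CD8a libraries and a log2 fold change over IgG of 1.50 ± 0.22 (adjusted p = 0.0001). Ndufaf1 had 32.2, 35.5 and 26.6 CPM and a change of 1.20 ± 0.17 (adjusted p = 6.5e-05). Every anti-CD8a library exceeded every IgG library for both. Ndufaf6, Ndufaf2, Ndufaf7 and Ndufaf3 rose by 0.92, 0.88, 0.80 and 0.62. Ndufaf4 (0.21, adjusted p = 0.252) and Ndufaf8 (0.39, adjusted p = 0.142) did not pass, though Ndufaf8 passed without IgG replicate 3 (0.60, adjusted p = 0.0239; range over the alternatives 0.0239 to 0.321). The accessory subunits with the largest rises were Ndufc1 (1.11 ± 0.20, adjusted p = 0.0004), Ndufc2 (1.10 ± 0.18, adjusted p = 0.00023), Ndufb8 (0.97 ± 0.15, adjusted p = 0.00014) and Ndufb2 (0.94 ± 0.17, adjusted p = 0.0005). Ndufab1 rose by 0.79 ± 0.14 (adjusted p = 0.0003).

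Among the core subunits, Ndufs1 had 303, 320 and 229 CPM in anti-CD8a libraries and rose by 0.95 ± 0.16 (adjusted p = 0.00025). Ndufs8 rose by 0.76 ± 0.14 (adjusted p = 0.00042) and Ndufv2 by 0.72 ± 0.15 (adjusted p = 0.00147). The rises of Ndufv1 (0.39 ± 0.12, adjusted p = 0.0158) and Ndufs7 (0.41 ± 0.14, adjusted p = 0.0232) were smaller, and both calls were lost in several alternatives. With no filter on low counts the adjusted p was 0.0999 for Ndufv1 and 0.0941 for Ndufs7, and with the compared groups alone it was 0.0536 and 0.0576. Without anti-CD8a replicate 2, the library in which Ndufv1 was highest, Ndufv1 was at 0.28, adjusted p = 0.114, and Ndufs7 at 0.38, adjusted p = 0.0796. Ndufs7 also lost its call without anti-CD8a replicate 3 (0.43, adjusted p = 0.0539) and without IgG replicate 4 (0.34, adjusted p = 0.0655). Ndufs3 (0.31, adjusted p = 0.0662) did not pass, though it did with DESeq2 (0.31, adjusted p = 0.0482) and without IgG replicate 3 (0.41, adjusted p = 0.0193). Ndufa4 rose by 0.50 ± 0.17 (adjusted p = 0.0261), a call lost with no filter on low counts (0.50, adjusted p = 0.0581), without IgG replicate 4 (0.45, adjusted p = 0.0614) and without anti-CD8a replicate 2 (0.38, adjusted p = 0.139). Ndufa4l2 rose by 0.93 ± 0.30 (adjusted p = 0.0173), a call lost without anti-CD8a replicate 3 (0.71, adjusted p = 0.0915). Over the alternatives tried, adjusted p ran from 0.00057 to 0.114 for Ndufv1, 0.00231 to 0.0941 for Ndufs7, 0.00359 to 0.234 for Ndufs3, 0.00414 to 0.139 for Ndufa4 and 0.00652 to 0.0915 for Ndufa4l2. In the same comparison 5 of 7 macrophage markers rose and 1 fell (sums of 61.1 to 218 CPM in anti-CD8a libraries), 3 of 5 fibroblast markers rose (715 to 835) and 2 of 6 pericyte markers rose. In addition 1 of 9 fast fibre markers and the 1 tested T cell marker rose and 1 of 3 red blood cell markers fell. The 8 slow or oxidative fibre markers were all above zero (median log2 fold change 0.33), and 0 passed. The part of these markers in the rise of the Nduf genes was not tested.

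**Figure D4:**
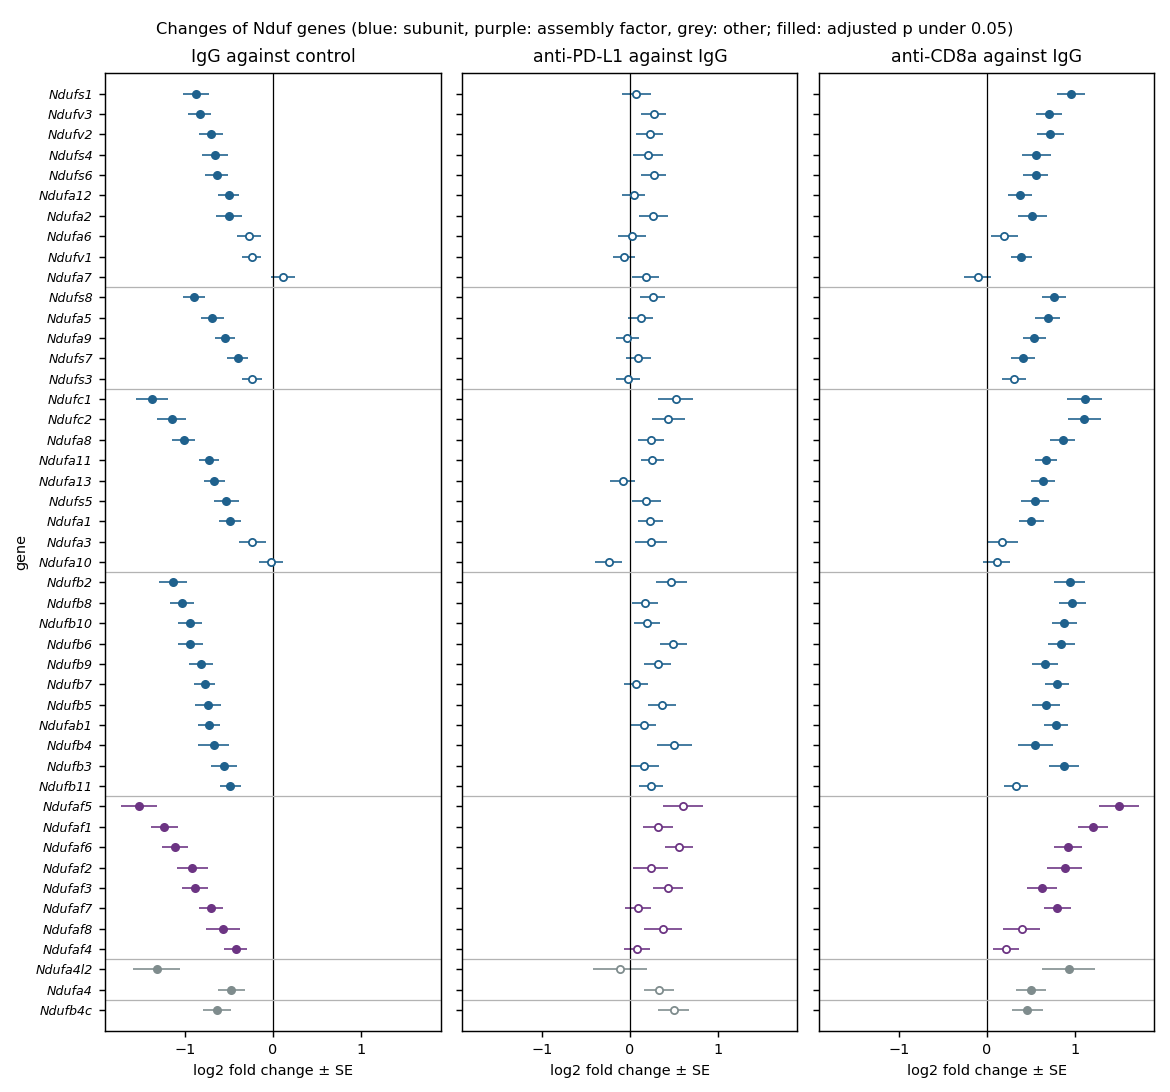
Log2 fold change of 46 tested Nduf genes (rows, by module in the order of the plot by library) in 3 comparisons, as points with the SE; blue points are subunits, purple points assembly factors and grey points other members, and filled points have an adjusted p under 0.05. In the left panel 40 points are filled, in the middle panel 0 and in the right panel 38.

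No Nduf gene passed the test between anti-CD8a and control libraries. In anti-CD8a against control, 0 of 47 rose and 0 fell in edgeR's test, 0 had an unadjusted p under 0.05, and DESeq2 called 0 in either direction. The background was 0.00696% of all genes called lower and 0.00696% higher, so that 2 of 14372 genes passed at all. The median log2 fold change of the Nduf genes was -0.05, with a range from -0.39 to 0.32. The values of Ndufaf5 (-0.02 ± 0.21), Ndufc1 (-0.26 ± 0.19) and Ndufs1 (0.08 ± 0.15) had 95% intervals of -0.47 to 0.42, -0.67 to 0.15 and -0.25 to 0.41. A missed threshold does not show that the levels were equal. The 8 slow or oxidative fibre markers were all above zero in this comparison, with a median log2 fold change of 2.03. In edgeR's test 0 of them passed, and 6 had an unadjusted p under 0.05. Their sums were 981 to 5601 CPM in control and 1864 to 13131 CPM in anti-CD8a libraries, and their part was not tested.

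No Nduf gene passed the test between anti-PD-L1 and IgG libraries either. In edgeR's test 0 of 47 rose, where 3.96% of all genes were called higher, and 0 fell, where 1.54% were called lower. An unadjusted p under 0.05 was found for 10, all of them higher, and DESeq2 called 0 subunits and 1 assembly factor, Ndufaf6, higher, with 6.05% of all genes. The values were above zero for 40 of the 47, with a median of 0.23 against 0.01 for all genes. The median was 0.20 for the subunits and 0.35 for the assembly factors. By CPM, in 7 of the 47 every anti-PD-L1 library lay above every IgG library, as for 7.41% of all genes: Ndufaf6, Ndufs8, Ndufb11, Ndufb2, Ndufb6, Ndufb9 and Ndufa1. On the TPM scale the summed subunits held 8904 to 10177 TPM in IgG and 11499 to 12870 TPM in anti-PD-L1 libraries. The summed assembly factors held 84.4 to 112 and 120 to 149 TPM. Neither sum overlapped between the groups, and no test was run on them. Upper-quartile scaling moved the median of all genes by 0.11 and the share of calls that were higher from 71.9% to 85.2%, and it called 1 subunit and 1 assembly factor higher, with 5.06% of all genes; DESeq2 gave a share of 48.1%.

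Ndufaf6 had 9.10, 8.70 and 12.2 CPM in anti-PD-L1 libraries and a log2 fold change over IgG of 0.56 ± 0.16 (adjusted p = 0.0518). Ndufaf5 had 11.1, 10.5 and 17.6 CPM and a change of 0.60 ± 0.22 (adjusted p = 0.106), and its replicate 3 was above both others. The accessory subunit with the smallest p was Ndufb6 of the distal arm, with 78.8, 66.9 and 80.1 CPM in anti-PD-L1 and 56.4, 52.5, 60.7 and 44.8 CPM in IgG libraries and a change of 0.49 ± 0.15 (adjusted p = 0.0672). The remaining assembly factors lay between 0.08 (Ndufaf4) and 0.43 (Ndufaf3), and the core subunits named here between -0.07 (Ndufv1) and 0.26 (Ndufs8). Without anti-PD-L1 replicate 2, Ndufaf6 (0.65, adjusted p = 0.0196), Ndufaf5 (0.74, adjusted p = 0.0465) and Ndufb6 (0.57, adjusted p = 0.0317) passed, in all 3 subunits and 2 assembly factors, where 9.71% of all genes were called higher. Without IgG replicate 2, Ndufaf5 (0.78, adjusted p = 0.0278) and Ndufaf6 (0.58, adjusted p = 0.0327) passed, where 10.1% of all genes did with a higher value. With both left out, a setting chosen after seeing the data, 4 subunits and 3 assembly factors were called higher, against 15.2% of all genes. The subunit counts at these settings are near or below the share of all genes, so they are not a result about the subunits. The calls among the 8 assembly factors are above that share. They are few, none of them passed in the main fit, and no result is drawn from them. Over the alternatives tried, adjusted p ran from 0.0148 to 0.281 for Ndufaf6, 0.0110 to 0.473 for Ndufaf5 and 0.0317 to 0.255 for Ndufb6. Markers of other cells moved in the same comparison: 6 of 7 macrophage markers rose (sums of 59.0 to 95.1 CPM in IgG and 174 to 570 in anti-PD-L1 libraries) and 3 of 5 fibroblast markers rose (493 to 685 and 1022 to 1285). The 8 slow or oxidative fibre markers were all below zero (median log2 fold change -1.46), and 0 passed. Their sums were 3346 to 10184 CPM in IgG and 966 to 4933 CPM in anti-PD-L1 libraries. None of these markers was at 0 in every library, and their part in the values of the Nduf genes was not tested.

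Compared with control, Nduf genes were lower in anti-PD-L1 libraries on the scale of TMM-normalized counts. Of the 47 genes, 28 fell and 0 rose relative to control, where 13.9% of all genes were called lower and 20.8% higher. DESeq2 called 33 lower and 0 higher. The values above zero were those of Ndufa7 (0.29, unadjusted p = 0.0703) and Ndufa3 (0.01). The median was -0.46 against 0.05 for all genes. Among the subunits 21 of 36 fell and among the assembly factors 6 of 8, all but Ndufaf4 and Ndufaf8. Ndufaf5 changed by -0.92 ± 0.22 (adjusted p = 0.00470), Ndufaf1 by -0.91 ± 0.17 (adjusted p = 0.00085), Ndufs1 by -0.80 ± 0.16 (adjusted p = 0.00159) and Ndufa4l2 by -1.43 ± 0.29 (adjusted p = 0.00189). In the same comparison 5 of 7 macrophage markers and 2 of 3 tested adipocyte markers rose. Of 5 fibroblast markers 3 fell and 1 rose, and 3 of 9 fast fibre, 2 of 6 pericyte and 1 of 5 endothelial markers and the 1 tested T cell marker fell. Of 8 slow or oxidative fibre markers 0 passed, with 5 above zero and 3 below. The adipocyte markers summed to 19.0 to 215 CPM in anti-PD-L1 libraries. The part of all these markers was not tested. Upper-quartile scaling shifted the median of all genes by -0.14, took the share of calls that were higher from 59.9% to 44.5% and called 38 Nduf genes lower. On the TPM scale the fall was not seen in the summed subunits, which held 11207 to 14248 TPM in control and 11499 to 12870 TPM in anti-PD-L1 libraries. The summed assembly factors held 145 to 182 and 120 to 149 TPM, which overlapped. No test was run on these sums.

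Between the antibody groups, 20 of 47 Nduf genes were lower in anti-PD-L1 than in anti-CD8a libraries and 0 were higher, where 7.64% of all genes were called lower and 12.1% higher. The median was -0.36 against 0.05 for all genes. They included 15 of 36 subunits and 4 of 8 assembly factors, Ndufaf1, Ndufaf2, Ndufaf5 and Ndufaf7. Ndufs1, with 142, 162 and 159 CPM in anti-PD-L1 and 303, 320 and 229 CPM in anti-CD8a libraries, differed by -0.88 ± 0.17 (adjusted p = 0.00409), and the 2 groups did not overlap. Ndufaf1 had 16.4, 17.1 and 17.6 CPM and 32.2, 35.5 and 26.6 CPM in the same order and differed by -0.88 ± 0.18 (adjusted p = 0.00476). DESeq2 called 25 lower and 0 higher, and no Nduf gene above zero had an unadjusted p under 0.05. The count was 6 without anti-CD8a replicate 2, where 3.58% of all genes were called lower, and 9 without anti-PD-L1 replicate 2, where 3.02% were; calls over all genes fell with these libraries left out as well. Of 7 macrophage markers 5 passed the test with higher values for anti-PD-L1. Of 5 fibroblast markers 3 were lower and 2 higher, and of 6 pericyte markers 2 were lower. The 8 slow or oxidative fibre markers were all below zero (median log2 fold change -1.82), and 0 passed. Their sums were 966 to 4933 CPM in anti-PD-L1 and 1864 to 13131 CPM in anti-CD8a libraries. The part of these markers in the difference was not tested. Upper-quartile scaling shifted the median of all genes by -0.12, took the share of higher calls from 61.3% to 45.1% and called 25 Nduf genes lower.

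The assembly factors were set against the subunits within each library, as the median log2 CPM minus the control mean over the genes of each class. Subunit medians were -0.18 to 0.18 for the control libraries, -0.79 to -0.52 for IgG, -0.60 to -0.37 for anti-PD-L1 and -0.18 to 0.15 for anti-CD8a. Assembly factor medians were -0.11 to 0.12 for the control libraries, -1.20 to -0.57 for IgG, -0.72 to -0.47 for anti-PD-L1 and -0.21 to 0.00037 for anti-CD8a. For both classes these CPM medians lay below those of all control libraries in IgG and anti-PD-L1, and in anti-CD8a they overlapped with control. The assembly factor median minus the subunit median was -0.07 to 0.08 in control libraries. It was -0.34, -0.06, -0.04 and -0.42 in the IgG libraries, -0.26, -0.12 and -0.10 in the anti-PD-L1 libraries and 0.05, -0.15 and -0.03 in the anti-CD8a libraries. In 2 of the 4 IgG libraries the assembly factors were thus lower than the subunits beyond the control range, and in the other 2, replicates 2 and 3, they were within it. All anti-PD-L1 libraries and anti-CD8a replicate 2 (-0.15) were also below the control range, so this was not particular to IgG. On the TPM scale, the summed subunits held 77.4 to 84.9 times the summed assembly factors in control and 90.1 to 112 times in IgG libraries. The ratio was 84.3 to 95.9 with anti-PD-L1, which overlapped both, and 81.1 to 88.5 with anti-CD8a, which overlapped control. The 36 subunits took 0.609 to 0.754% of a control library's counts, 0.410 to 0.487% with IgG, 0.518 to 0.640% with anti-PD-L1 and 0.636 to 0.754% with anti-CD8a.

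**Figure D5:**
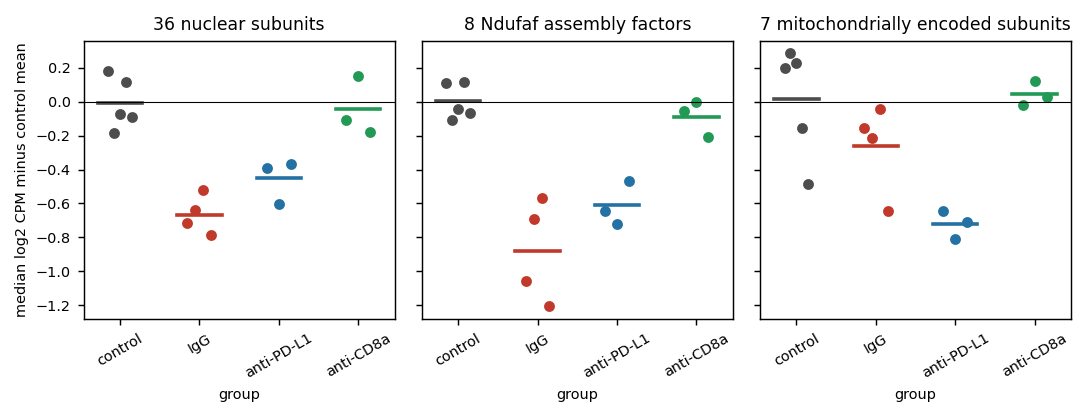
For each library (points, by group), the median over the genes of a class of log2 CPM minus the control mean; lines are group means. The medians of the 36 subunits and of the 8 Ndufaf assembly factors are below those of all control libraries in IgG and anti-PD-L1. In anti-CD8a they overlap with control. The group mean of the class median of the 7 mitochondrially encoded subunits is lowest in anti-PD-L1.

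The 7 complex I subunits encoded by mitochondrial DNA, which form the core of the membrane arm, had their lowest class medians in anti-PD-L1 libraries, although mt-Nd3 was lower in IgG, with a mean of 4035 CPM against 4954 CPM in anti-PD-L1 libraries. All genes whose symbols begin with mt-, these 7 included, took 17.6 to 23.0% of a control library's counts. Their share was 12.8 to 16.7% with IgG, 11.1 to 14.4% with anti-PD-L1 and 20.2 to 23.1% with anti-CD8a. The low values are thus not shown to be particular to complex I. In IgG against control 3 of 7 fell, where 28.4% of all genes were called lower: mt-Nd3 (-1.08 ± 0.19, adjusted p = 0.00016), mt-Nd1 (-0.63 ± 0.19, adjusted p = 0.00855) and mt-Nd4l (-0.61 ± 0.17, adjusted p = 0.00572). The class median per library was -0.64 to -0.04 in IgG and -0.48 to 0.28 in control, so the groups overlapped. In anti-PD-L1 against IgG mt-Nd5 fell, -0.79 ± 0.22 (adjusted p = 0.0489), with 12475, 10195, 11243 and 8754 CPM in IgG and 6574, 6252 and 5732 CPM in anti-PD-L1 libraries. The anti-PD-L1 class medians, -0.81 to -0.64, were at or below the lowest IgG value, while the nuclear subunits had a median log2 fold change of 0.20 in the same comparison with 0 called. Against control, 6 of 7 fell in anti-PD-L1 (median -0.79), where 13.9% of all genes were called lower. Against anti-CD8a, 5 of 7 were lower in anti-PD-L1 (median -0.81), where 7.64% of all genes were called lower. In anti-CD8a against IgG 3 of 7 rose, mt-Nd1 (0.54), mt-Nd3 (0.66) and mt-Nd4l (0.58), where 23.2% of all genes were called higher. In anti-CD8a against control edgeR called 0 of the 7, with 0 at an unadjusted p under 0.05.

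Of 12 assembly factors of other names, 11 were matched to the files by symbol and Coa1 was not. In IgG against control 6 of 11 fell, where 28.4% of all genes were called lower. They were Timmdc1 (-1.32 ± 0.17, adjusted p = 1.1e-05) and Tmem126b (-1.21 ± 0.19, adjusted p = 7.1e-05), both of membrane arm intermediates, Dmac2 (-0.71), Tmem70 (-0.64), and Ecsit (-0.44) and Acad9 (-0.28), which work with Ndufaf1. Foxred1, Tmem186, Dmac1, Aifm1 and Nubpl did not pass, with values between -0.02 and -0.34. The median of the 11 was -0.34, against -0.90 for the Ndufaf genes. In anti-CD8a against IgG 5 of 11 rose, led by Timmdc1 (1.23) and Tmem126b (1.19), where 23.2% of all genes were called higher. In anti-PD-L1 against IgG Timmdc1 rose, 0.73 ± 0.19 (adjusted p = 0.0365).

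Changes were also set beside the promoter matches. For IgG against control, the 9 genes with an NRF1 match had a median log2 fold change of -0.67 and the 31 without had -0.70. The 6 genes with a YY1 match had -0.60 and the 34 without had -0.71. Of the sequences shown above, Ndufa8 and Ndufs6 changed by -1.01 (adjusted p = 1.2e-05) and -0.64 (adjusted p = 0.00049), Ndufaf4 by -0.42, and Ndufa10, without an NRF1 match, by -0.02. The windows of Ndufa10, Ndufa8 and Ndufaf4 held 2 SP1 matches each, and that of Ndufs6 held 0. These genes were picked with their changes known, so they show no link between match and change. Transcript length was also set beside the changes of the 36 subunits, which had lengths of 389 to 2330 bases. Spearman's rho across these genes was 0.178 in IgG against control, -0.137 in anti-CD8a against IgG and -0.469 in anti-PD-L1 against IgG, against 0.0578, -0.0619 and -0.123 across all genes tested. In the last comparison shorter subunit transcripts had the higher values. The genes share their libraries and are not independent, so no p is given.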

How the data were processed

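The authors deposited, per library, RSEM expected counts and TPM for each gene. Per the submitters' processing notes, Trim Galore, STAR 2.7.9a and RSEM 1.3.3 were used, and the library kit, per the labels, was MGIEasy RNA Directional. The genome build, the annotation and the use of strand in counting are not given in the sources used here, so overlapping and antisense genes may share counts. Gene identifiers were given symbols with a table of names for 52083 of 55416 genes. Expected counts were rounded, normalized by TMM and filtered with filterByExpr by group, which kept 14372 genes. They were then fitted with edgeR 4.0.16 (R 4.3.3) in a quasi-likelihood model with 1 coefficient for each of the 4 groups (15 libraries, 11 residual degrees of freedom), and 6 contrasts were tested, each two-sided, with Benjamini-Hochberg adjustment over all genes and a threshold of 0.05. Standard errors were obtained as |log2 fold change| over the root of the F statistic. Log2 CPM used a prior count of 2. TPM values, deposited by the authors, were used for levels and for the ratio of subunits to assembly factors, with no test.

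The members, the gene lists and the markers were chosen with earlier results of these data known. Named with values were the core subunits, except 1 gene that is not reported here, every Ndufaf gene, Ndufab1, Ndufa4, Ndufa4l2, and in each of the comparisons of IgG with control, anti-PD-L1 with IgG and anti-CD8a with IgG up to 4 accessory subunits called in each direction, or the one of smallest p where none was called. Replicate numbers were checked as pairs: of 19 same-numbered pairs of libraries 3 had deviations that correlated above 0.1 (range -0.35 to 0.18), so no pairing was used. No pair of the 105 pairs of libraries held identical values. Alternatives were DESeq2 1.42.0, upper-quartile scaling, no filter on low counts, a mean CPM of at least 1, mitochondrial genes left out, the compared groups alone, a replicate block and each library left out. With total counts between 15894822 and 22459370, 3 counts correspond to 0.134 to 0.189 CPM, which limits the precision of genes near that level and covers counting error only. Promoter sequences came from RefSeq on GRCm38.p6.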

Additional observations from a re-analysis of the deposited data

Results flagged for a closer look

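One of 44 combinations of a named Nduf gene and a group of 4 or 5 libraries held a library that stood far from the others of its group. For Ndufc2, a membrane arm subunit, control replicate 1 had 180.4 CPM, while the other control libraries had between 120.3 and 133.9 CPM, so that on the log2 scale the gap to the nearest library was 0.734 of the whole range of the group. About 1 in 20 groups would be flagged by chance. Without control replicate 1 the log2 fold change of Ndufc2 in IgG against control was -1.05, adjusted p = 0.00011 in edgeR's test (range over the alternatives 4.6e-10 to 0.00042).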

How the results depend on the processing

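In IgG against control, 29 to 34 subunits and 7 to 8 Ndufaf genes were called lower over 17 alternatives and none higher; in anti-CD8a against IgG, 22 to 32 subunits and 6 to 8 Ndufaf genes were called higher over 15. In anti-PD-L1 against IgG, where no subunit and no Ndufaf gene was called, DESeq2 called 1 Ndufaf gene higher, upper-quartile scaling called 1 Ndufaf gene and 1 subunit, and leaving out IgG replicate 2 and anti-PD-L1 replicate 2 together, a setting chosen after seeing the data, called 4 subunits and 3 Ndufaf genes (4215 of all genes, in both directions); with single libraries left out the counts were 0 to 3 subunits and 0 to 2 Ndufaf genes (147 to 2712 of all genes). In anti-PD-L1 against anti-CD8a the 20 Nduf genes called lower became 13 with no filter on low counts, 11 with those libraries left out together, and 6 to 21 with single libraries left out. In anti-PD-L1 against control 19 to 38 were called lower. With the replicate number as a block, 13 Nduf genes were lower in anti-PD-L1 against anti-CD8a; the calls of Ndufaf8 in IgG against control (adjusted p = 0.0576, edgeR) and of Ndufv1, Ndufs7 and Ndufa4 in anti-CD8a against IgG were lost; and the sign of Ndufa4l2 in anti-PD-L1 against IgG (0.041) changed. The numbers do not pair the libraries, and of all genes 69 instead of 791 were called in anti-PD-L1 against IgG under the block and 1722 instead of 2836 in anti-PD-L1 against anti-CD8a; DESeq2 called 1807 in the first, and 68 instead of 2 in anti-CD8a against control, where upper-quartile scaling called 7 and the block 0. Other changes of sign were of genes near zero that had no call. With upper-quartile scaling Ndufv1 (0.041) and Ndufs3 (0.085) turned positive in anti-PD-L1 against IgG. With single libraries left out, log2 fold changes crossed zero in anti-PD-L1 against IgG for Ndufs3 (-0.090 to 0.076), Ndufs1 (-0.0080 to 0.17), Ndufaf7 (-0.0036 to 0.17), Ndufa4l2 (-0.25 to 0.0081) and Ndufaf4 (-0.11 to 0.20). The cause of these changes was not tested.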
